A study of Mus musculus with 2 samples.

Results

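The regions described here are 1150 of the strongest binding sites of the transcription factor GATA4 in mouse liver whose summits have no copy of the factor's own consensus sequence nearby. They were chosen by ranking the 24050 peaks of the authors' optimal list, which draws on both samples, on chromosomes 1 to 19 and X by the peak caller's signal score, keeping the top 20% (4810 peaks, called the top quintile), and then keeping those without a match to WGATAR on either strand within 50 bp of the summit. In this code W is A or T, R is A or G, Y is C or T, S is C or G and M is A or C. The other 3660 peaks of the top quintile have at least 1 match and serve as the comparison. Since signal and WGATAR chose the peaks, the level of either is given below as a description only.

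Chromatin from the whole liver of adult mice in good health was precipitated with a GATA4 antibody and sequenced (ChIP-seq), in 1 group of 2 samples numbered as biological replicates 1 and 2. The 2 samples share their tissue and donor identifiers. No label assigns them to separate animals, and differences between them may be technical. No treatment or mutant was part of the group, the control libraries named in the labels were not used here, age is given as unknown, and sex was not collected. Only peak lists were used, and they do not give a read depth. At the authors' threshold on reproducibility the list of replicate 1 held 4287 peaks and that of replicate 2 held 26314.

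GATA factors are zinc-finger proteins that bind WGATAR. In liver, GATA4 is known above all from the sinusoidal endothelium, the lining of the liver's capillaries, where it sets the identity of those cells, and it is also made in other liver cells. ETS factors, which bind sequences around GGAA and include the endothelial regulators ERG and FLI1, often sit beside GATA factors at endothelial enhancers. Chromatin from whole liver mixes these cell types, so fewer cells of a type and less binding per cell cannot be told apart.

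The windows below show what stands at these summits. Each reaches 50 bases to each side of the summit and is read from the mm10 genome on the plus strand. In the first 5, capitals mark words 1 base away from WGATAR, of the forms WGATTR, WGATAY or SGATAR in either orientation. They are 5 of the strongest peaks that hold such a word, chosen to show all 3 forms.
Zc3h6 promoter, chr2:128967177-128967277: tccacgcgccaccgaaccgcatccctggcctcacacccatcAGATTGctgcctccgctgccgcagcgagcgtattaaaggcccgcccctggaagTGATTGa
Tuba4a exon, chr1:75217290-75217390: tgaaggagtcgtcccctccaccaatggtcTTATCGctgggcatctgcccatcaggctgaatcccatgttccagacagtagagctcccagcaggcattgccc
Hes1 distal, chr16:29946057-29946157: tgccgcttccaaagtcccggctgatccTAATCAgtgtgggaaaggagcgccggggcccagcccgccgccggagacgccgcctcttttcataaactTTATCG
Sulf1 promoter, chr1:12718569-12718669: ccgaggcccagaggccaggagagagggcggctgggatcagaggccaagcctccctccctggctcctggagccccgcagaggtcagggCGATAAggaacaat
Fst upstream, chr13:114465527-114465627: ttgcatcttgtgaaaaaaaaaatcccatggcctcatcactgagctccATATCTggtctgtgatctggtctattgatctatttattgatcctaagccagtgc
The start sites of Tek and Stab1, genes of endothelial cells, are shown because such words and ETS cores (MGGAAR) stand side by side there, both in capitals.
Tek promoter, chr4:94739343-94739443: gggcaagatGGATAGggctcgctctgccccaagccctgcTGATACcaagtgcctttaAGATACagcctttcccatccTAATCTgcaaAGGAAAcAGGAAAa
Stab1 promoter, chr14:31168639-31168739: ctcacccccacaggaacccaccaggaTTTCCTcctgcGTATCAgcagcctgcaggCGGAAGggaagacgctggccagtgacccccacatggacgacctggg
The Psmg1 window has 2 ETS cores, in capitals, and none of the 3 word forms, and the Ip6k2 window has neither.
Psmg1 distal, chr16:95861426-95861526: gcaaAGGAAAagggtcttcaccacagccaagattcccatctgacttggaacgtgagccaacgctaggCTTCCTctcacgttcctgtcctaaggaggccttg
Ip6k2 promoter, chr9:108783533-108783633: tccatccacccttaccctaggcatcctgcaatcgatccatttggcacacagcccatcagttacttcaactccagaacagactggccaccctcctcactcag

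The peaks lacking the consensus made up 23.9% of the top quintile (95% Wilson interval 22.7 to 25.1%). Intervals here cover counting error over peaks, peaks of 1 list are not replicates, and no p-value was computed. The share lacking WGATAR was 23.9% in the strongest quintile of the list and then 40.1%, 49.5%, 55.2% and 67.3% in the next 4, from strong to weak. Strong signal did not leave the class out at the very top, since it held 3 of the 10 strongest peaks, 16 of the 100 strongest and 71 of the 500 strongest. The class shrank with a wider search, to 15.6% when WGATAR was sought within 100 bp, and to 11.6% when peaks with the 4-letter core GATA and any flanking base were also removed. A name such as "no GATA site" would therefore be untrue of the sequence at many of these peaks. Of the 1150 peaks, 51.7% still had the core GATA within 50 bp, 34.8% had WGATAR within 100 bp of the summit and 38.7% had it inside the deposited peak. Weaker peaks lacking WGATAR within 50 bp had it within 100 bp at 21.9% and inside the deposited peak at 36.5%, the latter close to the class. Whether any of these copies is bound was not tested. In the 100 bases that lie 51 to 100 bp from the summit, WGATAR was found at 30.6% (28.0 to 33.3%) of these peaks, against 15.3% (13.3 to 17.5%) in the same number of bases centred 500 bp away. The 3 weakest peaks of the class, near Lpcat1, Atpif1 and Nampt, had signal scores of 60.99, 60.97 and 60.96. The 3 strongest peaks lacking the consensus just outside the top quintile, near Arl15, Sema6a and Wdfy3, had 60.92, 60.90 and 60.85.

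Some forms that differ from the consensus at a single base were more frequent at these summits than at the remaining peaks and in the flanks. WGATTR, with T in place of A at base 5, was present at 38.9% of the peaks lacking the consensus, against 22.4% of the remaining peaks and 12.7% of the peaks' own flanks. WGATAY, which differs at base 6, was at 28.0%, against 12.0% of the remaining peaks and 12.6% of the flanks. SGATAR, which differs at base 1, was at 23.0%, against 8.83% and 6.94%. Flanks were equally long windows centred 500 bp from the same summits on both sides, and only the 1944 of 2300 that also lack WGATAR were counted, since the absence of WGATAR alone alters base composition. The differences from these flanks were 26.2 points (95% Newcombe interval 23.0 to 29.4) for WGATTR, 15.4 points (12.5 to 18.5) for WGATAY and 16.1 points (13.5 to 18.8) for SGATAR. Over all 24050 peaks of the list WGATTR was at 22.7%, WGATAY at 14.3% and SGATAR at 10.1%. The other forms at base 5 did not follow, with WGATCR at 9.04% of the peaks lacking the consensus and 8.85% of their flanks, and WGATGR at 20.2% and 23.2%.

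**Figure D1:**
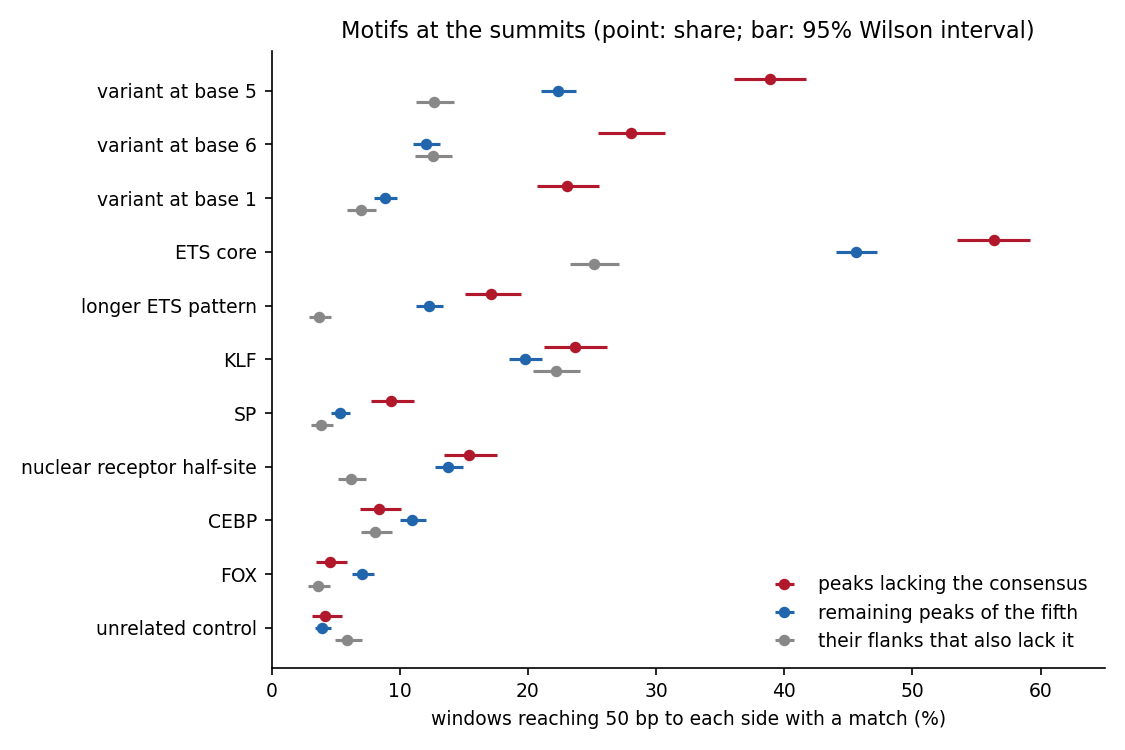
Share of windows, reaching 50 bp to each side of the summit, with a match to each motif (x axis, percent) at the peaks lacking the consensus, at the remaining peaks of the top quintile, and in flanks of the first that also lack it. Points are shares and bars 95% Wilson intervals. The variant forms at bases 5, 6 and 1 stand at 38.9%, 28.0% and 23.0% of the peaks lacking the consensus, right of both other sets, while an unrelated control pattern stands at 4.17%.

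Of 56 words in all that differ from WGATAR by 1 substitution, 11 were more frequent at the summits than in the flanks without the consensus, by an interval that leaves out 0, and 21 were less frequent. Substitutions are written with the base or code of WGATAR, its position counted from 1, and the base found. AGATTA (A5T) was at 16.2% of the peaks lacking the consensus, against 6.89% of the remaining peaks and 3.60% of the flanks. TGATTA (A5T) was at 9.83%, against 6.01% and 2.31%. CGATAA (W1C) had the highest ratio to the flanks, 22.4, with 10.3% of the peaks lacking the consensus, 1.83% of the remaining peaks and 0.463% of the flanks. CGATAG (W1C) was at 3.57%, against 1.15% and 0.309%, a ratio of 11.6. Both ratios rest on few flanks, since CGATAR, which covers both words, was in 15 of the 1944. Both words also contain CG, and flanks were not matched for CG content. The windows of the class held 3.15 CG on average, against 1.93 at the remaining peaks. In points the gain over the flanks was larger for AGATTA, at 12.6 (10.4 to 14.9), than for CGATAA, at 9.88 (8.20 to 11.8). AGATAT (R6T) was at 10.5%, against 4.13% and 4.06%. The words with G at base 1 differed. GGATAA (W1G) was at 6.61%, against 3.63% and 3.09%. Its gain over the flanks was 3.52 points, with an interval that left out 0. By contrast GGATAG (W1G) was at 3.65%, against 2.51% and 3.29%, and its interval against the flanks held 0.

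Longer words were chosen after these values were seen and carry no test. WGATTAG was at 13.0% of the peaks lacking the consensus (150 peaks), 4.56% of the remaining peaks and 1.34% of the flanks, and at 4.93% of all 24050 peaks. It stands in the Hes1 window, in reverse orientation. CGATAAG was at 5.65% (65 peaks), against 0.902% and 0.154%, and at 1.19% of all peaks. It stands near the end of the Sulf1 window.

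The 3 forms were also grouped after their shares were seen. Any of them was present at 72.3% of the peaks lacking the consensus (831 of 1150), against 38.1% of the remaining peaks and 28.9% of the flanks. At least 2 copies were present at 26.3%, against 8.88% and 5.76%. Among peaks of the list that lack WGATAR, the share with any of the 3 was 72.3% in the strongest quintile and then 57.1%, 46.8%, 42.7% and 32.5% in the next 4, while their flanks stayed between 26.7% and 28.9%. This series pools promoter and other peaks. From the strongest to the weakest quintile the share went from 72.8% to 41.7% outside promoters and from 70.2% to 18.2% at promoters. Over the same span the promoter share of these peaks went from 21.6% to 39.1%. At the 1150 peaks, the share with any of the 3 also depended on what lay further out. It was 81.1% at the 750 peaks with no WGATAR within 100 bp, and 55.8% at the 400 with WGATAR 51 to 100 bp away.

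**Figure D2:**
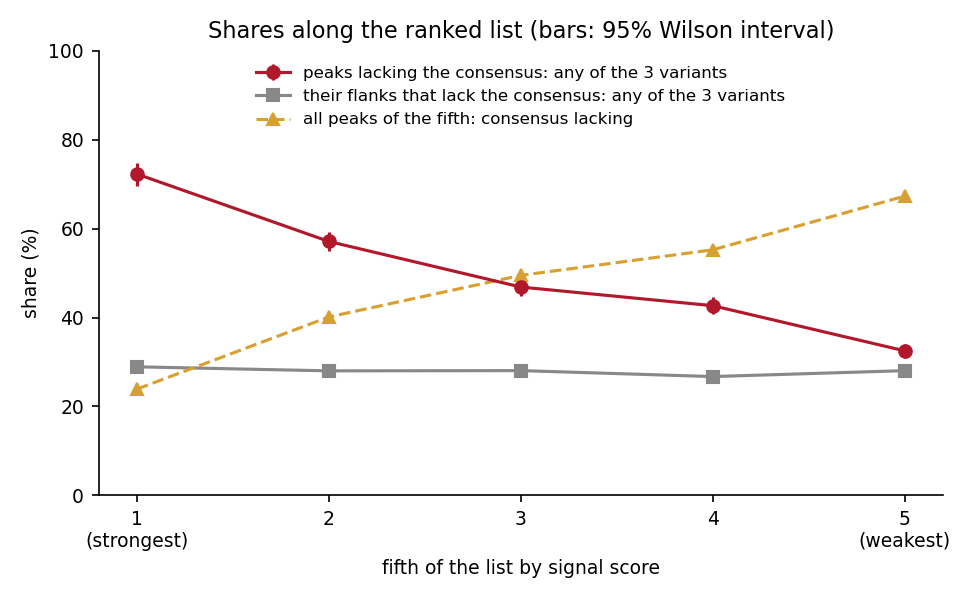
Shares along the list ranked by signal score (x axis, quintiles from strongest to weakest; y axis, percent). Circles with 95% Wilson intervals are peaks lacking the consensus that have any of the 3 variant forms, squares are their flanks that also lack the consensus, and triangles the share of all peaks in the quintile that lack it. With promoter and other peaks pooled, the share with a variant goes down along the list to 32.5% in the weakest quintile while that in the flanks stays between 26.7% and 28.9%.

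The variant words were concentrated at the summit. Within 20 bp of it, WGATTR occurred 5.74 times per 100 peaks in each 10 bp at the peaks lacking the consensus, 3.82 times its rate at 150 to 200 bp. The ratios were 4.05 for WGATAY and 4.15 for SGATAR. At the remaining peaks the same ratios were 1.73, 1.12 and 1.34, and that of WGATAR itself was 9.64. The ETS core had a ratio of 2.54 at the peaks lacking the consensus and 1.91 at the remaining peaks, over a broader zone. A control pattern with no link to these factors, WTATGC, had 0.965 and 0.637.

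**Figure D3:**
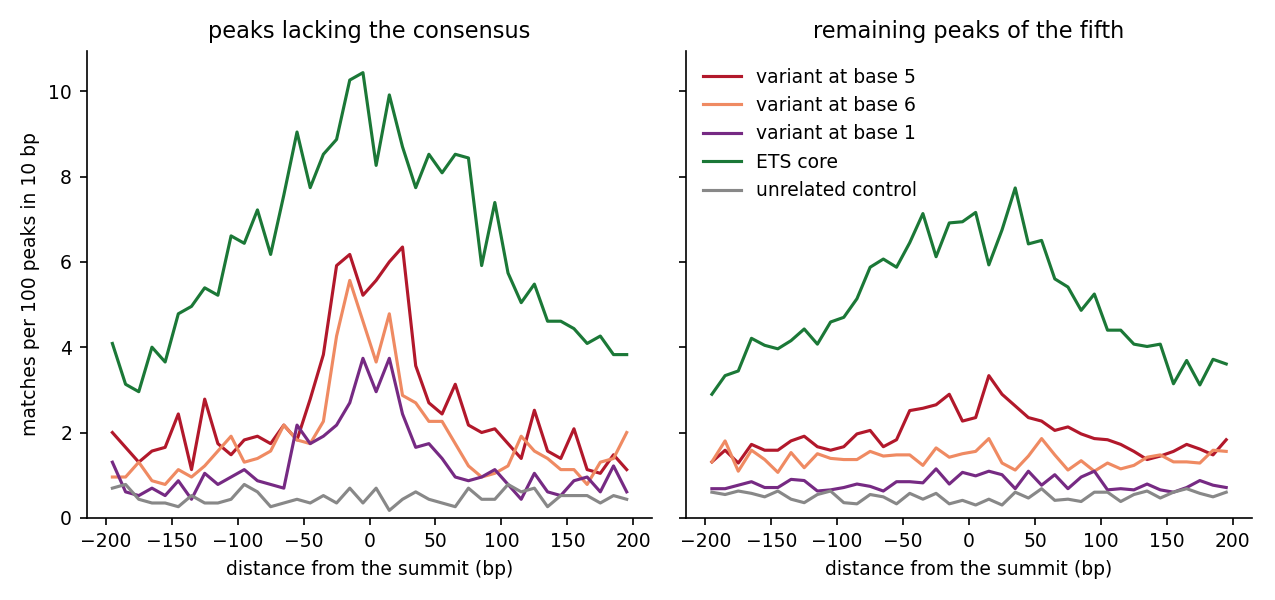
Matches per 100 peaks in each 10 bp (y axis) by distance from the summit (x axis, bp), at peaks lacking the consensus (left) and the remaining peaks of the top quintile (right). The 3 variant forms peak within about 50 bp of the summit on the left, with centre to edge ratios of 3.82 to 4.15, and the form at base 6 is nearly flat on the right, with a ratio of 1.12.

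Of the 35 listed patterns outside the GATA family, 6 were more frequent at the peaks lacking the consensus than at the remaining peaks, 2 were less frequent, and for 27 the interval of the difference held 0. ETS motifs led. The ETS core MGGAAR was at 56.3% of the peaks lacking the consensus, against 45.6% of the remaining peaks, a difference of 10.7 points (7.44 to 14.0), and at 25.2% of the flanks. The longer CAGGAAG was at 17.1%, against 12.3%, a difference of 4.86 points (2.52 to 7.37), and at 3.70% of the flanks. With WGATAR sought within 100 bp that interval held 0 (2.41 points, -0.226 to 5.35). CCGGAAG, the form typical of promoters, was at 4.09% against 2.46%. Its excess was at promoters, with 11.7% against 6.05%, and outside them it was at 2.00% and 1.98%. Weaker peaks lacking WGATAR had it at 5.73%. Over all 24050 peaks these 3 patterns were at 46.0%, 12.0% and 3.58%. Outside promoters the ETS core was at 59.2% of the peaks lacking the consensus and 46.0% of the remaining peaks. At promoters it was at 46.0% and 42.3%, a difference of 3.64 points whose interval, -4.06 to 11.4, held 0.

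Among all 8-base words, 9 of the 10 with the largest gain over the flanks contained GGAA and resembled the ETS core. ACAGGAAG was at 5.91% of the peaks lacking the consensus, against 4.23% of the remaining peaks and 1.00% of all 2300 flanks. The other word of the 10 was AGATTAGA, at 4.26%, against 1.28% and 0.304%, which contains the longer word described above.

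SP, KLF and NRF1 motifs, which are common in promoters, made up the other 3 more frequent patterns. The SP motif GGGCGG was at 9.30% of the peaks lacking the consensus and 5.30% of the remaining peaks, a difference of 4.00 points (2.27 to 5.94). Outside promoters it was at 3.55% and 2.94%, and that interval held 0, as did the one in the strongest 10% of the list (2.23 points, -0.0844 to 5.07). The KLF motif CACCC was at 23.7% and 19.8%, but at 22.2% of the flanks. The interval of its 3.90 points held 0 with WGATAR sought within 100 bp, at an irreproducible discovery rate (IDR) of 0.01, in the conservative list, at promoters alone and in replicate 1's own list. The NRF1 motif was at 1.48% and 0.273%, and at promoters at 6.45% and 1.86%. Forkhead and C/EBP motifs, which mark hepatocyte enhancers, were the 2 less frequent patterns. FOX TGTTTRC was at 4.52% of the peaks lacking the consensus and 7.08% of the remaining peaks, a difference of -2.55 points (-3.93 to -0.984). C/EBP TTRCNNAA was at 8.35% and 11.0%, a difference of -2.61 points (-4.41 to -0.615). Both stood near their flanks, at 3.60% and 8.08%. The FOX interval held 0 when peaks with any GATA core were removed (-1.01 points, -2.81 to 1.33), at an IDR of 0.01, in the conservative list, at promoters alone and in replicate 1's own list. The C/EBP interval held 0 with any GATA core removed, at promoters alone, outside promoters alone (-2.21 points, -4.26 to 0.0953) and in replicate 1's own list. The nuclear receptor core AGGTCA was at 15.4% and 13.8%, with an interval of the difference that held 0, and at 6.17% of the flanks. Over all 24050 peaks SP was at 9.33%, KLF at 21.5%, NRF1 at 0.994%, FOX at 5.31%, C/EBP at 9.14% and AGGTCA at 11.8%. The HNF4, NFI, SOX, AP-1, MEIS and TEAD motifs listed likewise had intervals that held 0. In the list of replicate 1 alone, the ETS core differed by 6.65 points with an interval of -1.92 to 15.4, and 1 of the 35 patterns had an interval that left out 0.

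A variant word and an ETS core were both in the window at 39.2% of the peaks lacking the consensus (451). A variant word alone was at 33.0% (380), an ETS core alone at 17.1% (197), and neither at 10.6% (122). The Tek and Stab1 windows belong to the first group, the Zc3h6 and Sulf1 windows to the second, and the Psmg1 window to the third. The median GC content was 56.4% in the group with neither, against 51.5% in that with both. Over the whole class a variant word was at 72.3% and an ETS core at 56.3%. Whether they shared windows more often than these shares alone would give was not tested.

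The peaks lacking the consensus lay at promoters more often than the remaining ones. A summit within 1 kb of the start site of a protein-coding gene was found for 21.6% of the peaks lacking the consensus (248) and 11.7% of the remaining peaks (430), a difference of 9.82 points (7.29 to 12.5). Introns held 39.1% against 44.7%, intergenic sequence 37.4% against 41.2%, and exons 1.91% against 2.35%. The share of the whole list at promoters was 21.6%, and that of weaker peaks lacking WGATAR was 35.4%. The rule itself selects against a word rich in A and T, and promoter windows are richer in G and C. The part of this in the promoter difference was not tested. The promoter difference was not the same in the lists of the 2 replicates. When replicate 2's own list was ranked and split in the same way it was 15.4 points, with an interval that left out 0. In replicate 1's own list, with 148 peaks lacking the consensus, promoter shares were 7.43% and 7.76%, a difference of -0.325 points (-4.24 to 5.34), an interval that ends below the 9.82 points of the optimal list.

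Promoter peaks of the class differed from its other peaks in the words they held. SGATAR was at 32.3% of the 248 promoter peaks and 20.5% of the 902 others, a difference of 11.7 points (5.59 to 18.3). WGATAY went the other way, at 14.5% and 31.7%, a difference of -17.2 points (-22.1 to -11.4). WGATTR was at 35.1% and 39.9%, with an interval that held 0. Median GC content was 61.4% in the promoter windows and 50.5% in the others, and the part of base composition in these differences was not tested. Over the whole class the median was 51.5%, against 48.5% at the remaining peaks, which all hold WGATAR by the rule. Repeat-masked bases averaged 7.57% of the windows, against 7.91%. By chromosome, the share of the top quintile lacking the consensus ran from 19.7% to 28.0% on the autosomes, and on chromosome X it was 3 of 35 peaks.

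Support by the replicates was uneven. Support meant an overlap of 1 base or more with the thresholded list of a replicate. Replicate 1's list covered 49.8% of the peaks lacking the consensus (573) and 63.3% of the remaining peaks (2315), against 17.0% of all 24050 peaks, a difference of -13.4 points (-16.7 to -10.1). Replicate 2's list covered 99.8% (1148) and 99.8% (3651), against 82.5% of all peaks. Of all 5193 promoter peaks of the list replicate 1's list covered 6.14%, and of all 18857 other peaks 20.1%. At promoters replicate 1 supported 22.6% of the peaks lacking the consensus and 41.6% of the remaining peaks. Elsewhere it supported 57.3% and 66.1%, a difference of -8.81 points (-12.4 to -5.22). Signal score moved with this difference, with medians of 78.7 at the peaks lacking the consensus and 84.0 at the remaining peaks. Compared within deciles of the rank, the difference in replicate 1 support was -8.93 points (-12.1 to -5.80), and in the top quintile of the conservative list it was -8.39 points (-13.5 to -3.74).

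**Figure D4:**
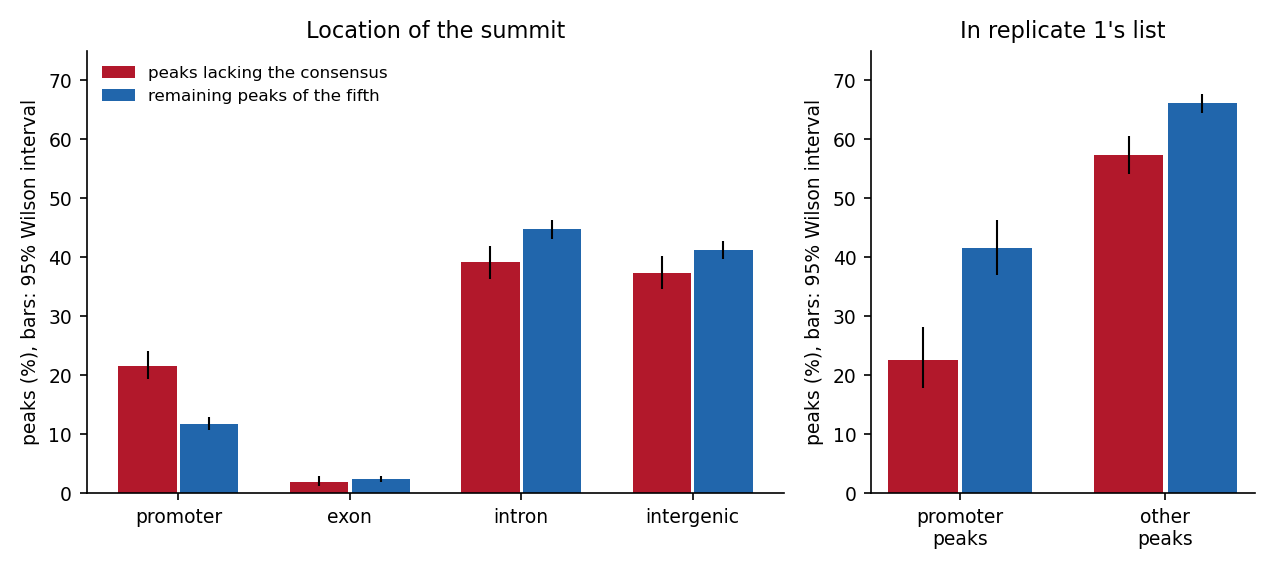
Left, location of the summit, and right, share of peaks in replicate 1's own thresholded list for promoter and other peaks (y axes, percent of peaks; bars show the share and lines the 95% Wilson interval). Promoters hold 21.6% of the peaks lacking the consensus and 11.7% of the remaining ones, and at promoters replicate 1 supports 22.6% and 41.6%.

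The relaxed lists held 299785 peaks in replicate 1 and 299826 in replicate 2 on these chromosomes, so a counterpart there can be weak. In them, all 1150 peaks lacking the consensus had a counterpart in replicate 2 and 1094 in replicate 1. Replicate 2's relaxed list also covered 100% of the remaining peaks and 99.85% of all 24050 peaks. Replicate 1's covered 95.1% of the class, 97.4% of the remaining peaks and 72.1% of all peaks. Outside promoters it covered 97.9% and 98.3%, and the interval of that difference, -1.60 to 0.538 points, held 0. At promoters it covered 85.1% and 90.7%, a difference of -5.62 points (-11.1 to -0.626). The signal scores of the class in replicate 1 ran from 4.30 to 93.2 with a median of 17.2, against a median of 20.3 at the remaining peaks. In replicate 2 they ran from 30.3 to 294.1 with a median of 63.1, against 64.9. In replicate 1 the median was 11.7 over the 211 promoter peaks with a counterpart and 18.3 over the 883 others with one. In replicate 2 it was 66.3 over all 248 promoter peaks and 61.8 over all 902 others. By these medians the promoter peaks were lower than the others in replicate 1 and a little higher in replicate 2. Any of the 3 variant words was at 73.6% of the class's peaks in replicate 1's list and 70.9% of those absent from it. By form, WGATTR was at 42.2% and 35.5%, a difference of 6.71 points (1.07 to 12.3), WGATAY was at 32.3% and 23.7%, a difference of 8.54 points (3.35 to 13.7), and SGATAR at 20.6% and 25.5%, a difference of -4.88 points (-9.72 to -0.0129). Promoter and other peaks were pooled in these shares. Replicate 1's list covered 22.6% of the promoter peaks of the class and 57.3% of the others, and WGATAY and SGATAR differ between them. The part of location in these differences was not tested.

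**Figure D5:**
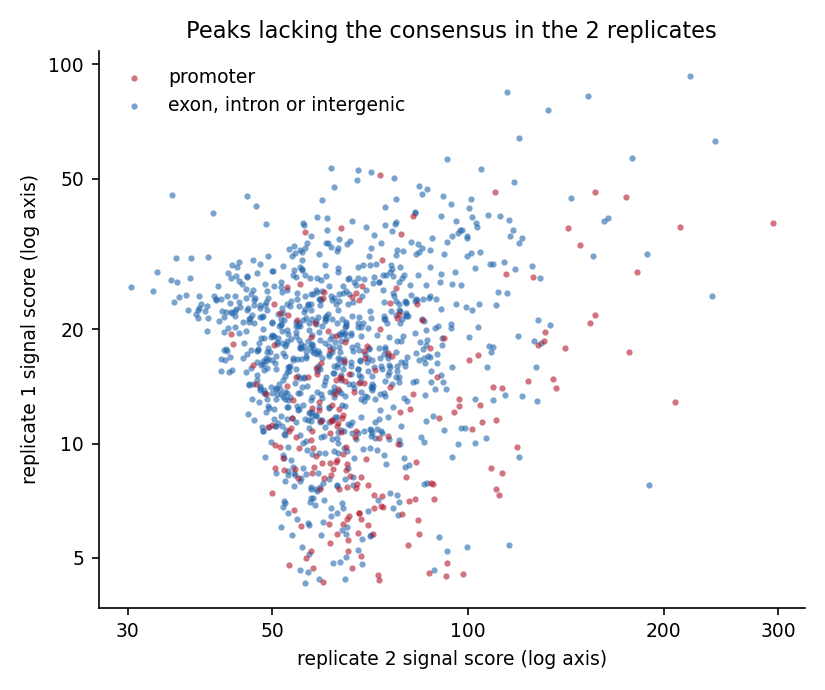
Signal score in replicate 1 (y axis, log scale) against that in replicate 2 (x axis, log scale) for the 1094 peaks lacking the consensus found in both relaxed lists. Each point is a peak. The 211 promoter peaks, with a median of 11.7 in replicate 1, lie lower than the 883 others, with 18.3.

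The 10 strongest peaks of the class were near Zc3h6, Pdlim5, Tuba4a, Hes1, Sulf1, Fst, Rdh1, Sde2, Got1 and Ccdc9, each called by the nearest protein-coding start site. All 10 had at least 1 variant word, against 72.3% of the class. The peaks near Ip6k2, Ddah1 and Psmg1, a little lower at ranks 58, 63 and 76 of the list, had none. The strongest peak of the whole list was the one 175 bp upstream of Zc3h6, which encodes a CCCH zinc-finger protein, at chr2:128967056-128967395. Its signal score was 333.3 in the optimal list, 38.1 in replicate 1, where it ranked 421, and 294.1 in replicate 2, where it ranked 1. Its window has AGATTG and TGATTG and no ETS core. The peak in an intron of Pdlim5, which encodes a PDZ and LIM domain protein of the actin cytoskeleton, had 93.2 in replicate 1 and 219.8 in replicate 2. It ranked 7 and 8 there, so both replicates placed it near the top.

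The exonic peak of Tuba4a, an alpha-tubulin gene, had 62.9 in replicate 1 and 239.7 in replicate 2, and its only variant word is CGATAA read on the minus strand. The peak 119233 bp upstream of Hes1, a repressor gene induced by Notch signalling, had 24.5 and 237.6. It ranked 1527 in replicate 1 and 3 in replicate 2. The peak 90 bp downstream of the start of Sulf1, which encodes a secreted enzyme that removes sulfate groups from heparan sulfate, had 37.3 and 211.5. Fst encodes follistatin, which binds and blocks activin, and the peak 6626 bp upstream of it had 82.7 and 153.2. Its word, AGATAT, lies within a few bases of the summit.

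The Rdh1 peak had 56.7 in replicate 1 and 179.0 in replicate 2 and has all 3 forms. Rdh1 encodes a retinol dehydrogenase, and the same peak lies within 10 kb of Gpr182, a receptor gene of sinusoidal endothelium. The peak 70 bp upstream of Got1, the cytosolic aspartate aminotransferase gene, had 44.6 and 175.2 and ranked 228 and 37. The Sde2 promoter peak stood apart, with 12.9 in replicate 1 and 208.3 in replicate 2, and was not in replicate 1's thresholded list. Other peaks lacking the consensus that were high in replicate 2 and absent from that list included the intronic peak of Ctif nearest to Smad7, with 7.76 and 190.1, and the promoter peaks of Stab1 and Pcgf1, with 14.8 and 14.1 in replicate 1 and 135.4 and 136.8 in replicate 2. These were picked for that contrast. The peaks near Tmem51 and Kntc1 were the 2 absent from replicate 2's list, although their scores in its relaxed list were 73.3 and 62.8.

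By class, the promoter peak of Ip6k2, an inositol hexakisphosphate kinase gene, was among the 5 strongest, with 28.4 in replicate 1 and 181.8 in replicate 2. The strongest exonic peaks after Tuba4a were much lower in the list, the next being an exon of Wdr59 nearest to Fa2h, at rank 885. Intronic peaks of Ddah1, which encodes an enzyme that breaks down the nitric oxide synthase inhibitor dimethylarginine, and of Sec24a, a coat protein gene of vesicle transport, were high in both replicates. Ddah1 had 75.6 and 132.7, with ranks of 18 and 182, and Sec24a had 63.9 and 119.7, with ranks of 40 and 282. The Ddah1 window has an ETS core and no variant word. The Psmg1 peak, 129414 bp downstream of that start site, had 39.3 and 164.1.

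Genes were then counted by whether a peak lacking the consensus lay in them or within 10 kb. Such a peak was found for 4.67% of all 21755 protein-coding genes, while a remaining peak of the top quintile was found for 11.9%. Among 29 genes of sinusoidal endothelium, 13 (44.8%) had a peak lacking the consensus and 19 (65.5%) a remaining peak, and 9 had both. Among 14 genes of ETS and SOXF factors, which regulate endothelial genes, 6 (42.9%) and 9 (64.3%) did. Among 30 hepatocyte genes the counts were 4 (13.3%) and 13 (43.3%), with no gene in both, and among 26 genes of hepatocyte transcription factors 4 (15.4%) and 17 (65.4%). No gene of the lists for Kupffer cells (15 genes), stellate cells (15), cholangiocytes (12) or erythroid cells (11) had a peak lacking the consensus, and 2 cholangiocyte genes had a remaining peak. In lists this short such an absence is not far from the 4.67% of all genes. Any peak of the whole list was found for 2, 5, 4 and 2 of their genes, in that order. The same held for 28 of the 29 sinusoidal genes and 47.6% of all genes. The lists differ in gene length and in the number of peaks they hold, and these shares carry no test.

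The endothelial genes with the strongest such peaks were Gpr182, Tek, Stab1 and Wnt2. Tek, the receptor for angiopoietins, had 3 peaks lacking the consensus and no remaining peak. Its promoter peak had signal scores of 37.0 in replicate 1 and 142.4 in replicate 2. Stab1, a scavenger receptor of sinusoidal endothelium, had 14.8 and 135.4. Wnt2, a Wnt ligand made by these cells, had an intronic peak with 21.3 and 74.2 and an ETS core without a variant word. Of the ETS genes, Erg had an intronic peak with 41.8 and 100.4, Fli1 a promoter peak with 37.1 and 63.9, Ets1 a distal peak with 26.1 and 61.2, and Elf1 an intronic peak with 14.1 and 50.7. The peaks of Erg, Ets1 and Elf1 have both an ETS core and a variant word, and that of Fli1 has neither.

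Of the hepatocyte genes, Cyp3a11, a drug-metabolising cytochrome P450, had a peak with 31.4 in replicate 1 and 77.5 in replicate 2, and Alb, the albumin gene, one with 24.1 and 59.3, which lies between it and Afp. Ttr, which encodes the thyroxine carrier transthyretin, had 15.8 and 58.4, and Apob, the apolipoprotein of very low density lipoprotein, had 22.8 and 47.9. The Cyp3a11, Alb and Ttr windows have a variant word and no ETS core, while the Apob window has an ETS core only. Among the hepatocyte factors, Nr1i2, the pregnane X receptor gene, had 29.7 and 108.0, Nr5a2, a regulator of bile acid synthesis, had 20.8 and 78.6, and Nr0b2, which encodes the repressor SHP, had 12.1 and 78.7. The Nfib peak had no counterpart in replicate 1's relaxed list and 55.8 in replicate 2.

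In the other lists 1 to 3 genes had a peak lacking the consensus. Among 8 genes of GATA factors and their FOG cofactors 1 (12.5%) had one and 4 (50%) a remaining peak. The counts were 1 of 19 circadian clock genes (5.26%), with 6 (31.6%) for remaining peaks, 1 of 18 immediate early genes (5.56%), with 3 (16.7%), and 3 of 20 ubiquitous genes (15.0%), with 2 (10%). The clock and immediate early shares stand near the 4.67% of all genes, and the ubiquitous share is as high as those of the hepatocyte lists. Zfpm1, which encodes the GATA cofactor FOG1, had an intronic peak with 23.3 and 103.8 and neither a variant word nor an ETS core. Tef, a clock-controlled PAR bZIP factor, had 17.9 and 72.9, and Btg2, an immediate early antiproliferative gene, had 21.8 and 52.8. The ubiquitous genes Vps29, Psmb2 and Tbp had 8.93, 14.7 and 6.02 in replicate 1 and 83.3, 64.7 and 51.5 in replicate 2, and none of these 3 was in replicate 1's list. The 1150 peaks were spread over 999 nearest genes, of which 129 were nearest to at least 2 and 16 to at least 3. Ets1, Lhfpl2, Maf and Plcb4 were nearest to 4 each, and Gm10295 to 5. Of the remaining peaks of the top quintile, Ets1 was nearest to 5, Lhfpl2 to 0, Maf to 4, Plcb4 to 3 and Gm10295 to 9.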

How the data were processed

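GATA4 ChIP-seq peak lists of 2 samples of mouse liver were used, on build mm10 per the file headers and README tables. The authors deposited, per peak, the caller's signal score without a unit, the −log10 q-value, the offset of the summit (an other unit, in bases), and a score for the irreproducible discovery rate (IDR), which by its values equals 125 times -log2(IDR) with a cap of 1000. The optimal, conservative and relaxed lists come from an earlier run of the authors' processing and the replicates' thresholded lists from a later one, with both controls, per the README tables. Aligner: not given in the sources used here, as is the peak caller. Depth is unknown, and a signal score was compared within 1 list only.

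Of 24083 lines, 33 on other sequences were left out, and 24 lines that share a position were kept. Sequence was read from GRCm38.p6 with pysam 0.24.0 and samtools 1.23.1, and genes were those of GENCODE mouse release 21, with 41135 protein-coding start sites. The 42 motif patterns were sought in both orientations up to 50 bp from the summit, and tables were made with pandas 2.3.3 and numpy 2.4.6. Differences of shares have 95% Newcombe intervals and shares Wilson intervals. Motif, overlap and interval code was tested on simulated data.

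The regions, motif and gene lists were chosen with earlier results of these data known. The text names the 10 strongest peaks, the strongest at promoters, in exons, introns and between genes, the 3 just inside and outside the top quintile, up to 4 genes per list, in order of their strongest peak's rank, motifs whose share differs by 3 points or more, and known liver, endothelial or promoter motifs that do not. Peaks named for a contrast between replicates, the genes nearest to most peaks and longer words were chosen after their values were seen. Alternatives were other windows, GATA definitions, list cuts, overlap rules, the conservative list, each replicate's own list and, added after seeing the data, flanks without the consensus. One item that these choices name is not reported here.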

Additional observations from a re-analysis of the deposited data

How the results depend on the processing

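The share of the top quintile lacking the consensus was 23.9% as reported, 15.6% with the search widened to 100 bp, 11.6% without any GATA core, 20.6% in the strongest 10% of the list, 22.1% at an IDR of 0.01 and 17.9% in the conservative list, and in a single replicate's list it ran from 17.3% without replicate 2 to 27.7% without replicate 1. The promoter difference stayed above 0 with its interval under every setting except the list without replicate 2, and over the 2 settings that leave out a replicate ran from -0.325 to 15.4 points. The difference in replicate 1 support kept its direction and its interval below 0 under every setting run, and without replicate 1 was -19.3 points. The difference in replicate 2 support, 0.0720 points with an interval that held 0, changed sign to -0.0450 points in the strongest 10%, -0.122 at an IDR of 0.01 and -0.104 in the conservative list, again with intervals that held 0, and without replicate 2 was 0 points.

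The number of the 35 other patterns whose share differed from the remaining peaks was 8 as reported, and 5 in the conservative list, at promoters alone and outside promoters alone, and ran from 1 without replicate 2 to 12 without replicate 1. The number that differed from the flanks was 19 as reported and ran from 9 without replicate 2 to 18 without replicate 1. Of the motifs named, the C/EBP difference from the flanks, 0.391 points against all flanks with an interval that held 0, turned to -1.21 in the strongest 10%, -0.282 at an IDR of 0.01, -0.302 in the conservative list, and ran from -0.411 without replicate 1 to 6.42 without replicate 2. KLF against the flanks ran from -0.338 without replicate 2 to 1.34 without replicate 1. At promoters alone CAGGAAG turned to -1.10 points and AGGTCA to -3.38, with intervals that held 0. WGATTR, WGATAY and SGATAR stayed above the remaining peaks and the flanks under every setting run in which they can occur. The cause of these changes was not tested. Shorter lists and single classes hold fewer peaks, and replicate 1's top quintile had only 148 peaks lacking the consensus.

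Ranking by the significance column was not run, because 11312 lines of the optimal list are tied at its highest value. Support by a replicate was not computed on that replicate's own list. No paired analysis was possible because the series has 1 group.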
